A study of Homo sapiens and Mus musculus with 54 samples.

Results

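C/EBPα binding in HepG2, an established human liver cancer cell line, was described from the merged peak list deposited for the C/EBPα ChIP-seq libraries. All 62761 rows of that list were taken, of 323311 rows in the 4 HepG2 lists and 434604 rows in all 6 lists of the series. The libraries behind it are 2 from control cells and 2 from vitamin B2-deficient cells (labelled B2_minus), all from day 12, each group with 2 inputs. Both inputs of the B2_minus group are titled for AhR and C/EBPα together. For C/EBPα and for the aryl hydrocarbon receptor (AhR), proteins were first linked to each other with disuccinimidyl glutarate and then fixed with formaldehyde, whereas the H3K27ac samples saw formaldehyde alone. The list gives a name, a chromosome, a start and an end for each peak on the human build hg38, with no value for any library. The depth is therefore unknown, the list does not tell control from B2_minus cells, and no comparison of the conditions was made.

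C/EBPα, encoded by CEBPA, is a leucine zipper transcription factor that binds DNA as a dimer, with itself or with its relatives, at sites close to the palindrome TTGCGCAA. In the liver it is known for driving genes of secreted plasma proteins, gluconeogenesis, amino acid breakdown and lipid handling. It also acts in adipocytes and in the myeloid lineage, and it slows cell division. H3K27ac is a histone mark found at active enhancers and promoters, and AhR is a receptor that binds DNA after it takes up a small ligand.

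The peaks are short stretches with a median width of 230 bp (range 200 to 694 bp). Each name ends in a number, called the merge number here. In the naming used by HOMER, the peak software listed in the submitters' notes, it counts the peaks joined into an entry. Merge number 1 was held by 25374 peaks (40.4%), 2 by 12901 (20.6%) and 3 or more by 24486 (39%), of which 21 were above 3. Those 21 had a median width of 534 bp. In the AhR list from the same cells, 57.7% of peaks had merge number 1, 42.3% had 2 and 13 peaks had 3 or more. The labels do not say which peak sets were merged, so the merge number is used below as a property of the entry and not as a count of libraries. The 91 peaks on chromosome Y were left out of every value that follows, which leaves 62670.

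The sequence under the peaks could be read where a peak covered a promoter window, the 250 bases before and 50 bases after a transcription start in RefSeq (GRCh38.p14). Windows were searched for TTNNGCAA on both strands (TTNNGCAA or TTGCNNAA), a pattern that leaves 2 letters of the palindrome free. Of 251 list genes with a window, out of 354 genes in the 24 lists used here, 71 had it under a peak and 43 under a peak of merge number 3 or more. Over all 15811 protein-coding genes with a window these counts were 1628 (10.3%) and 801. The 7 promoters below are those of the 43 with a match upstream of the start and within 50 bases of the peak centre. Of the 43 windows, 11 held a match anywhere, and over all windows under such peaks the share was 25.3%. The 7 were thus chosen for holding a match and do not stand for the rest. They lie at genes for secreted liver proteins (ALB, FGA, VTN, SAA4, LCN2), at the bile acid importer gene SLC10A1, and at CD68, best known from macrophages. Bases run 5′ to 3′ in the direction of the gene, and capitals mark the matches.
ALB (chr4:73404126-73404205, plus strand): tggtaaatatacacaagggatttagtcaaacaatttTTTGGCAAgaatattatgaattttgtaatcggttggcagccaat
FGA (chr4:154590840-154590919, minus strand): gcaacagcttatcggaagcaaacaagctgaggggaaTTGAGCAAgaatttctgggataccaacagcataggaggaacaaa
VTN (chr17:28370489-28370557, minus strand): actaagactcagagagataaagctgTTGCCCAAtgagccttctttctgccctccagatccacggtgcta
SAA4 (chr11:18236813-18236907, minus strand): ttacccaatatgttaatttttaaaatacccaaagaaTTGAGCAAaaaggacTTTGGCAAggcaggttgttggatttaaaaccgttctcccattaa
LCN2 (chr9:128149274-128149353, plus strand): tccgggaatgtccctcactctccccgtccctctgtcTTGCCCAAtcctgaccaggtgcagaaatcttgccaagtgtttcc
SLC10A1 (chr14:69797257-69797336, minus strand): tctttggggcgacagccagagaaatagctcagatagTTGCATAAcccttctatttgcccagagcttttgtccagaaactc
CD68 (chr17:7579589-7579637, plus strand): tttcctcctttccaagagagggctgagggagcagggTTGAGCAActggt

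In ALB, the gene for serum albumin, the stretch runs from base -161 to -82 before the start, and the match lies 30.5 bp from the centre of a peak of merge number 3. The match in FGA, which encodes the fibrinogen alpha chain, is 2.5 bp from the peak centre, and that in VTN, the gene for the adhesive plasma protein vitronectin, is at the centre (0 bp). The letters TTGAGCAA stand in the promoters of FGA, SAA4 and CD68. SAA4, which encodes a constitutive serum amyloid A, holds TTTGGCAA as well, and ALB holds the same letters. Of the pair in SAA4, the nearer to the peak centre is TTGAGCAA, at 15 bp. VTN and LCN2, the gene for the iron-carrier-binding protein lipocalin 2, share TTGCCCAA, and SLC10A1 holds TTGCATAA 3 bp from the centre. All 7 peaks have merge number 3, as the choice of promoters required 3 or more. Of the 7, 6 overlap an AhR peak (the exception is SAA4) and 0 overlap an H3K27ac region. Among all peaks of merge number 3 or more within 1 kb of a transcription start, 41.7% overlap an AhR peak and 3.24% an H3K27ac region. The H3K27ac list held few regions near starts, so the 0 does not show that these promoters lack the mark.

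Over all 15811 protein-coding genes with a window, 1628 windows lay under a peak (10.3%). TTNNGCAA was present in 8.4% of all windows, in 7.09% of the 14183 windows without a peak (Wilson 95% interval 6.68 to 7.53) and in 19.8% of those under a peak (17.9 to 21.8). The share was 13.7% under merge number 1 (11 to 16.9), 15.6% under 2 (12 to 20) and 25.3% under 3 or more (22.5 to 28.5). The exact palindrome TTGCGCAA was rare, with 4 of the 14183 windows without a peak (0.0282%) and 18 of the 801 windows under merge number 3 or more (2.25%, 1.43 to 3.52). These intervals cover counting error over windows only, and neighbouring peaks are not independent. As a yardstick for base composition, the same letters in another order, TANNGCTA, were found in 3.08% of windows without a peak and in 2.62% of windows under merge number 3 or more. Median GC content was 62.7% without a peak and 61.7% under merge number 3 or more.

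The matches gathered at the middle of the peaks. Within 30 bp of the centre there were 1.51 matches per 1000 positions for merge number 1, 2.54 for 2 and 4.43 for 3 or more. At 70 to 150 bp from the centre the values were 0.311, 0.306 and 0.292, so all 3 classes had the same low density away from the middle. The reordered letters gave 0.126, 0.077 and 0.0815 per 1000 positions within 30 bp. Of peaks whose stretch within 30 bp of the centre lay wholly inside a window, 8.14% of merge number 1 (28 of 344), 13% of 2 (24 of 184) and 25% of 3 or more (135 of 539) had a match there. The other peaks lack these letters in that stretch, which says nothing of looser sites.

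**Figure D1:**
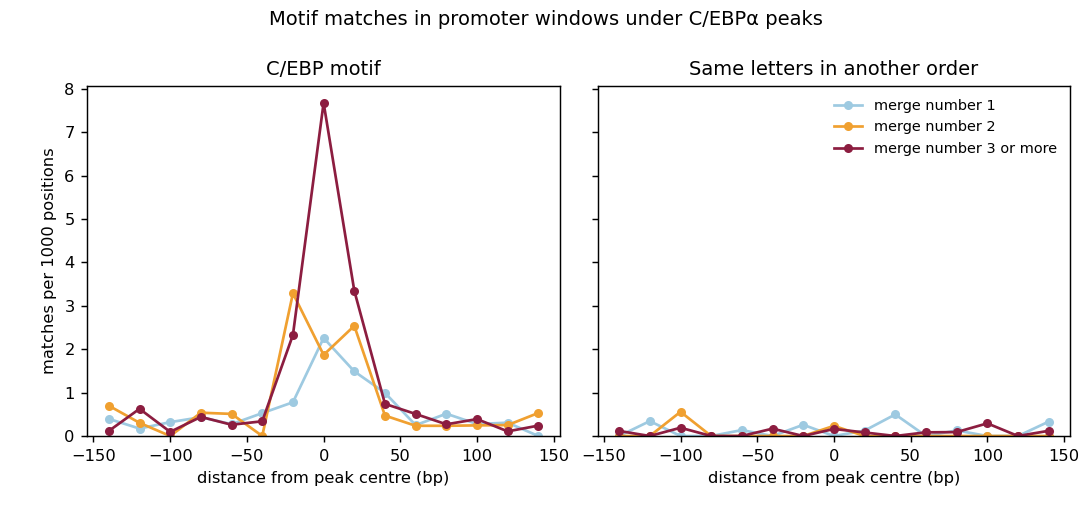
Matches to the C/EBP motif (left) and to the same letters in another order (right) per 1000 positions searched, in 20 bp bins by distance from the peak centre (bp), for C/EBPα peaks over promoter windows; lines are merge numbers 1, 2 and 3 or more. The central bin reaches 7.68 matches per 1000 positions for merge number 3 or more, and the reordered letters show no rise at the centre.

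The letters inside the motif differed between peak centres and promoters without a peak. Among 220 matches within 30 bp of a centre, 30.5% had C as the second of the 2 free letters, giving a CG step (67 of 220), against 8.08% of 1065 matches in windows without a peak (86). TTGCGCAA made up 19 of the 220 central matches and 4 of the 1065, TTACGCAA 19 and 7, and TTTCGCAA 20 and 11. The remaining form with C there, TTCCGCAA, went the other way, with 9 (4.09%) and 64 (6.01%). So did TTCAGCAA, with 3 of 220 (1.36%) and 109 of 1065 (10.2%), and TTCTGCAA, with 10 (4.55%) and 139 (13.1%). The most frequent central form was TTGGGCAA (28). A variant pattern with G in place of T as its second letter, TGNNGCAA, was also central. It stood at 4.86 per 1000 positions within 30 bp for merge number 3 or more and 0.279 at 70 to 150 bp. It stood in 29.2% of the windows under merge number 3 or more and in 8.27% of those without a peak. One form of it, TGATGCAA, the core of the composite element shared by C/EBP and ATF proteins, was in 3.12% and 0.486% of these windows. GCGTG, the core of the AhR element, was in 48.7% and 43.7%, CCAAT in 47.4% and 35.4%, and the forkhead pattern TGTTTAC in 3% and 2.65%.

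Most C/EBPα peaks lay far from gene starts. Of the 62670 peaks, 53.9% had their centre inside a protein-coding gene (33776), 30.6% lay outside but within 50 kb of one, and 15.5% lay farther away. Exons and introns were not told apart. Of the 60058 peaks on chromosomes with listed starts (chromosome 8 has none in the table used), 6.3% lay within 1 kb of a start (3784), 24.5% within 10 kb and 25% at 100 kb or more, with a median distance of 35816 bp. The share within 1 kb was 5.56% for merge number 1, 6.71% for 2 and 6.86% for 3 or more, and 4.78% for the AhR list. Distances hardly differed between merge numbers otherwise, with medians of 37985, 32369 and 35348 bp. Near starts the peaks leaned upstream: 62.2% of those within 1 kb were before the start (60.7 to 63.8), and 66.1% of those with merge number 3 or more (63.8 to 68.4).

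**Figure D2:**
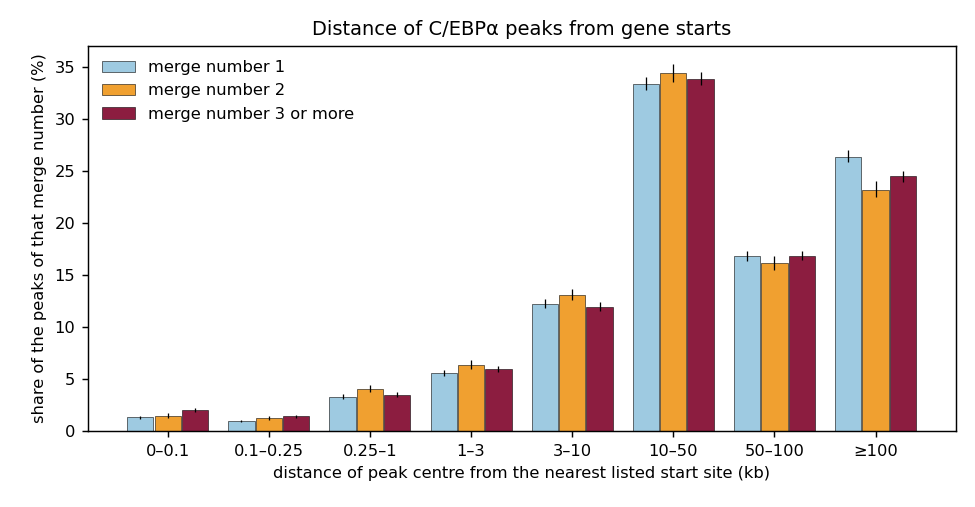
Share of C/EBPα peaks (%) by distance of the peak centre from the nearest listed start (kb), for merge numbers 1, 2 and 3 or more; bars are shares of that merge number and lines are Wilson 95% intervals over peaks. The largest class is 10 to 50 kb for each merge number (33.4, 34.4 and 33.9%).

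Overlap with the other 2 HepG2 lists was graded by merge number. An AhR peak overlapped 27.8% of C/EBPα peaks of merge number 1 (27.2 to 28.3), 43.6% of 2 (42.8 to 44.5) and 76.7% of 3 or more (76.2 to 77.2). For H3K27ac regions the shares were 32.7%, 45.3% and 67.2%. Both were present at 19.9%, 30.4% and 58.7%, and neither at 59.4%, 41.5% and 14.8%. Where peaks overlapped, the C/EBPα and AhR centres were a median of 21.5 bp apart, and 19.5 bp for merge number 3 or more, so the calls fall on nearly the same bases. The median for H3K27ac was 39 bp. The AhR and C/EBPα libraries were crosslinked alike and share the 2 inputs of the B2_minus groups, while the control groups have inputs of their own, and the part of this in the overlap was not tested.

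H3K27ac overlap near starts cannot be read from these lists. The H3K27ac list held 358 regions at 2 to 3 kb from a listed start and 2914 at 3 to 4 kb, whereas C/EBPα had 1519 and 1309 peaks and AhR 1255 and 1195. In these lists, 2.62% of C/EBPα peaks within 1 kb of a start overlapped an H3K27ac region, against 54.9% of those beyond 10 kb, and the part of that step in this difference was not tested. The gradient with merge number was also seen more than 3 kb from every gene end, a class that includes peaks deep inside genes. There H3K27ac overlapped 36.2%, 51.2% and 76.3% of merge numbers 1, 2 and 3 or more, and AhR 28.9%, 46.5% and 80.3%. More than 50 kb from genes the highest class stood at 77.6% for H3K27ac and 80.6% for AhR. AhR overlap was lower close to starts in all classes, at 16.7%, 21.9% and 41.7% within 1 kb and 29%, 46.1% and 80.1% beyond 10 kb.

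C/EBPα peaks came in groups along the chromosomes. The median distance from one peak centre to the next nearest was 5770 bp, and 16.3% of peaks had another within 1 kb. When neighbouring centres were chained at the distance that HOMER uses by default to stitch super-enhancers (5 kb and 25 kb were the alternatives), 31.9% of peaks stood alone, and 25% were in clusters of 5 or more (15690 peaks in 2212 clusters). This share was 6.32% at 5 kb, 48.7% at 25 kb and 12.7% for peaks of merge number 2 or more alone. The same rule put 24.4% of AhR peaks in such clusters. Merge number 3 or more accounted for 34.9% of peaks that stood alone, 39.4% in clusters of 2 to 4, 43.4% in 5 to 9, 44% in 10 to 19 and 46.4% in clusters of 20 or more. H3K27ac overlap went from 41% to 63.7% over the same steps, and AhR overlap from 43.4% to 60.7%. The merge number of the nearest neighbour hardly differed between classes: it was 3 or more for 38.9% of peaks of merge number 1 and for 40.4% of peaks of 3 or more.

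**Figure D3:**
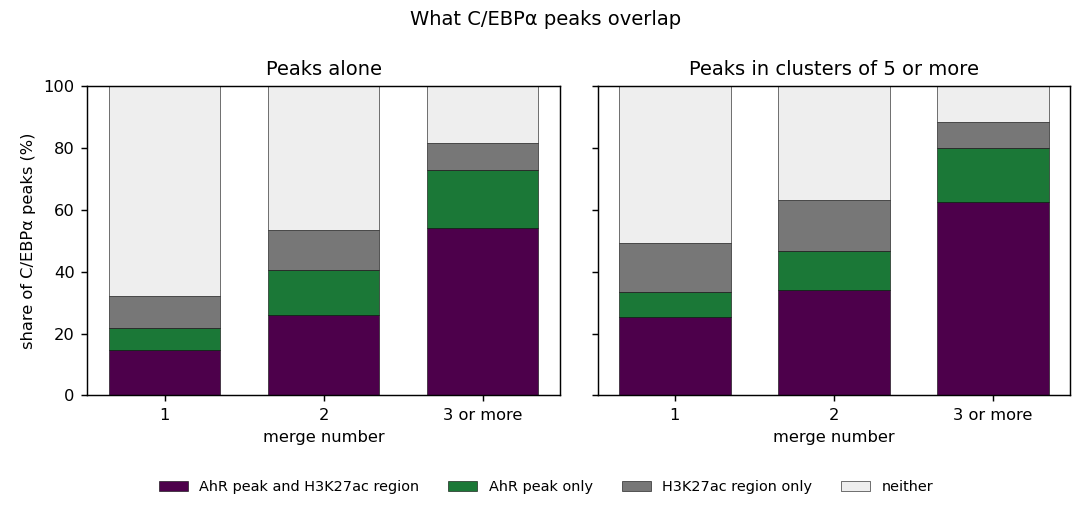
Share of C/EBPα peaks (%) that overlap an AhR peak and an H3K27ac region, an AhR peak only, an H3K27ac region only, or neither, by merge number, for peaks alone (left) and in clusters of 5 or more (right). Peaks that overlap neither make up 68% of lone peaks of merge number 1 and 11.7% of clustered peaks of merge number 3 or more.

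The 10 clusters with the most peaks held 262 peaks, 46.9% of them of merge number 3 or more and 67.2% over an H3K27ac region. The largest, of 34 peaks in 162 kb (chr2:152329079-152491422), touched FMNL2, which encodes a formin that builds actin filaments. The second held 33 peaks, 19 of merge number 3 or more and 28 over H3K27ac regions, at chr20:50330705-50474643. It touched no protein-coding gene. PTPN1, the gene for the phosphatase PTP1B, was nearest at 35740 bp, and the cluster began 138 kb beyond the end of CEBPB. Next came 30 peaks at ABCC3, an exporter of organic anions, with ANKRD40 and LUC7L3, and 29 peaks at SPTBN1, a spectrin gene. BEST1 and FTH1, the ferritin heavy chain gene, shared 24 peaks, and GLRX, which encodes a glutaredoxin, had 24. ZFP36L2 and THADA shared 23, and ARHGAP18 had 22. The other two lay near ATF7IP2 (22 peaks, 15149 bp away) and SLC30A1, a zinc exporter gene (21 peaks, 280 bp away). In all, 5 clusters had 21 peaks, and SLC30A1 is named as the first in chromosome order.

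Peaks were assigned to the nearest protein-coding gene body within 50 kb, each peak to 1 gene. By this rule 13082 of 19970 genes had a peak (65.5%), 8713 had one of merge number 3 or more (43.6%), 3671 had 5 or more peaks (18.4%) and 1160 had 10 or more (5.81%), with a median of 1. Long genes collect more: 39.4% of genes under 10 kb and 95.2% of genes over 300 kb had a peak. Counts for a gene or a list are to be read against these values, and no list was matched for gene length. A gene given as having none had none assigned, and peaks near it may be counted for a neighbour.

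In the C/EBP family, 4 of 6 genes had a peak and the same 4 had one of merge number 3 or more. CEBPB, whose product is the close relative induced in the acute phase response, had 12 peaks, 8 of them of merge number 3 or more. These 8 lay at -10718, -2945, -1312, 1838, 17670, 28766, 31088 and 33154 bp from its listed start (negative is upstream). CEBPA itself had 7 peaks. Its 3 of merge number 3 stood together downstream of the short gene, at 7316, 8869 and 9778 bp, each over an H3K27ac region, and the only peak inside the gene, at 2196 bp, had merge number 2. CEBPG, which encodes a partner that lacks an activation domain, had 8 peaks, 2 of them of merge number 3, of which 1 lay at 49 bp from its start. CEBPD had none assigned and 3 within 50 kb. DDIT3, the stress-induced dimer partner CHOP, had none assigned because overlapping neighbours took them, yet a peak of merge number 3 lay at -298 bp from its start (chr12:57520706-57520925).

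Hepatocyte transcription factors had a peak at 23 of 24 genes and one of merge number 3 or more at 20. PROX1 led with 18 peaks (8 of merge number 3 or more), and HNF4A had 15 (7 of merge number 3 or more). HNF4A encodes the nuclear receptor that is central to hepatocyte identity. Its 7 peaks of merge number 3 lay inside the gene or beyond it, from 37576 to 87239 bp after the first listed start, and the peak at -293 bp had merge number 1. The single member without a peak was NR0B2, a bile acid-induced repressor, which had 14 within 50 kb that lay nearer to other genes. Of the 16 members with a listed start, 7 had a peak within 1 kb of it and 1 had one of merge number 3 or more, against 22.2% and 10.5% of all genes with a listed start.

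**Figure D4:**
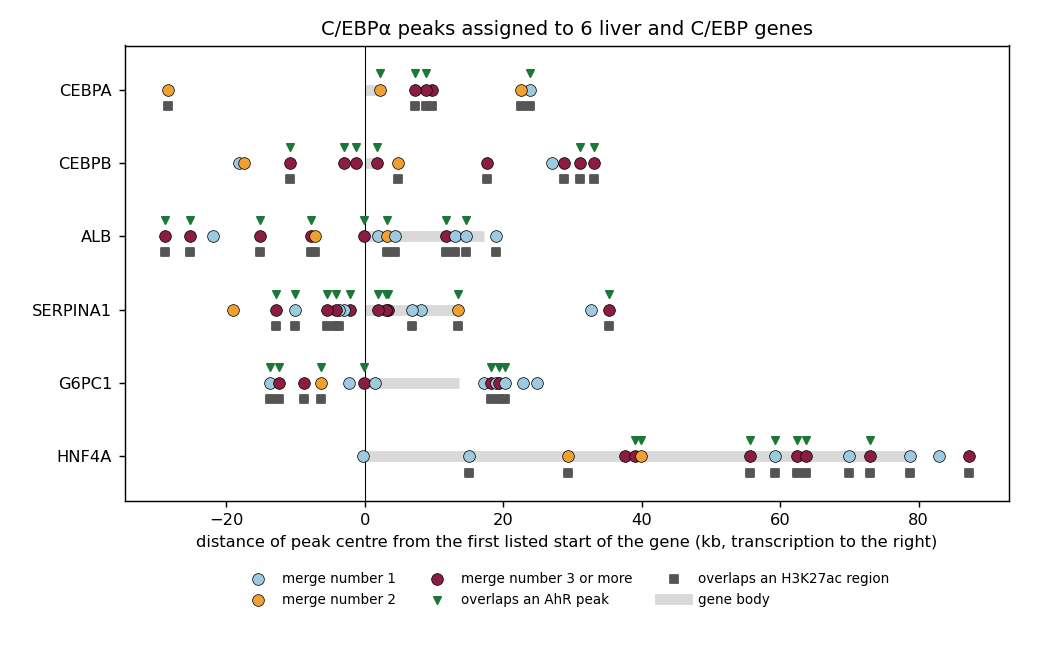
C/EBPα peaks assigned to CEBPA, CEBPB, ALB, SERPINA1, G6PC1 and HNF4A by distance of the peak centre from the first listed start (kb, transcription to the right); circles are peaks coloured by merge number, triangles above mark AhR overlap, squares below mark H3K27ac overlap and grey bars are gene bodies. ALB and G6PC1 have a peak of merge number 3 just before the start (-152 and -146 bp), whereas those of CEBPA lie 7316 to 9778 bp after it.

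Genes of secreted plasma proteins had a peak at 17 of 18 members and one of merge number 3 or more at 16. SERPINA1, which encodes alpha-1-antitrypsin, had 16 peaks, of which 8 had merge number 3. One of the 8, at chr14:94388570-94388848, lay at -107 bp from an internal listed start and overlapped an AhR peak. ALB had 14 peaks, 6 of merge number 3. These sat at -28848, -25198, -15167, -7770 and -152 bp and, inside the gene, at 11774 bp. All 6 overlapped an AhR peak, and 5 overlapped an H3K27ac region, the exception being the promoter peak. TF, the gene for transferrin, had 13 peaks. TTR, which encodes the thyroid hormone carrier transthyretin, had 7 peaks, all over AhR peaks, 3 of them of merge number 3. A1BG had none assigned and 2 within 50 kb.

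Merge number 3 peaks were frequent at the starts of secreted protein genes. Of the 14 plasma protein genes with a listed start, 10 had one within 1 kb, against 10.5% of all such genes. So did 9 of 16 acute phase genes, 8 of 14 coagulation genes and 6 of 13 complement genes. The plasma protein and acute phase lists share FGA, FGB, FGG and HP, so their counts are not separate. RBP4, the retinol carrier gene, had 2 peaks of merge number 3 within 1 kb of a start, 1 of them at -49 bp. AHSG, encoding fetuin-A, had one at -112 bp, AMBP at -112 bp and HPX, the hemopexin gene, at -108 bp. In the clotting cascade they lay at -52 bp in F2 (prothrombin), 26 bp in F7, -58 bp in F12, -38 bp in KNG1 (kininogen) and -2 bp in SERPIND1 (heparin cofactor II). In the complement system they lay at -86 bp in C8A, -108 bp in C4BPA and, from an internal listed start, -36 bp in C6. Each of these named peaks overlapped an AhR peak, against 41.7% of all peaks of merge number 3 or more within 1 kb of a start. This did not hold for every list gene. In the acute phase list, the peaks at -62 bp in IL6R, 922 bp in ITIH4 and -80 bp in SAA4 overlapped none, while those in FGA and LCN2, among others, did. F9, the factor IX gene, had a peak at 8 bp with merge number 1, and MBL2, encoding mannose-binding lectin, had one of merge number 2 at -96 bp from an internal listed start.

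Over whole loci, the coagulation list had a peak at 16 of 16 members and merge number 3 or more at 12, led by F5 (11 peaks), F11 (5) and KNG1 (5). Acute phase genes had 22 of 23 and 20, led by FGG (9), CP (8), the ceruloplasmin gene, and IL6R (8), the receptor of the cytokine that induces the response. ITIH3 had none. Complement genes had 14 of 18 and 11, led by C8A (10 peaks, 8 of merge number 3 or more), C2 (7) and C5 (7). C4A, C4B and MASP2 were among the members with none assigned (5, 1 and 2 within 50 kb), and C4A and C4B are near-identical copies. Apolipoproteins had 15 of 16 and 13, led by APOB (10 peaks, 8 of merge number 3 or more), the scaffold of VLDL and LDL, then APOH (8) and APOA4 (6). APOA1 had 1 peak, of merge number 3 and 133 bp from the gene body. In such dense gene clusters the nearest gene rule decides much: APOA1 had 15 peaks within 50 kb, and APOE, with none assigned, also had 15.

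Among metabolic lists, glycogen and glycolysis genes had a peak of merge number 3 or more at 12 of 12 members. SLC2A2, the gene for the glucose carrier GLUT2, had 10 peaks, 6 of merge number 3 or more, and PYGL, the liver glycogen phosphorylase gene, had 7, of which 5 had merge number 3 or more. Gluconeogenesis genes had 14 of 15 with a peak and 13 with merge number 3 or more. PPARGC1A, the coactivator gene, had 24 peaks in 681 kb, with a merge number 3 peak at -234 bp from an internal listed start, and GPT2, an alanine aminotransferase gene, had 20. G6PC1, the glucose-6-phosphatase that releases glucose from hepatocytes, had 14 peaks. Its 5 of merge number 3 lay at -12344, -8718, -146, 18234 and 19406 bp. PCK1, encoding the cytosolic PEP carboxykinase, differed: 6 of its 9 peaks had merge number 1, and the single one of merge number 3 was 285 bp from the gene body (chr20:57560710-57560939). SDS had none.

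Urea cycle and amino acid genes had a peak at 12 of 14 members and merge number 3 or more at 11, with 12 peaks at SLC25A13 and 10 at CPS1, the entry enzyme of the urea cycle. TAT, the tyrosine aminotransferase gene, was counted in the gluconeogenesis list. It had 14 peaks, 7 of merge number 3, of which 1 was at the edge of the gene body (4 bp) and 1 inside it. In the urea cycle and amino acid list, NAGS had none assigned and 7 within 50 kb, and TDO2 had none within 50 kb. Lipogenesis genes had 18 of 19 and 15, led by the lipin genes LPIN1 (20) and LPIN2 (14) and by ELOVL6 (11), a fatty acid elongase. Fatty acid oxidation genes had 19 of 20 and 16, led by PPARA (10), PLIN2 (9) and ACADL (8). Bile acid genes had 15 of 16 and 11. AKR1D1, which encodes the steroid 5-beta-reductase of bile acid synthesis, had 22 peaks, 13 of merge number 3 or more, with KLB (7) and SLC10A1 (6) next and CYP7B1 without a peak. THRSP and ETFDH, of the fat synthesis and oxidation lists, had none assigned, with 9 and 3 within 50 kb.

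**Figure D5:**
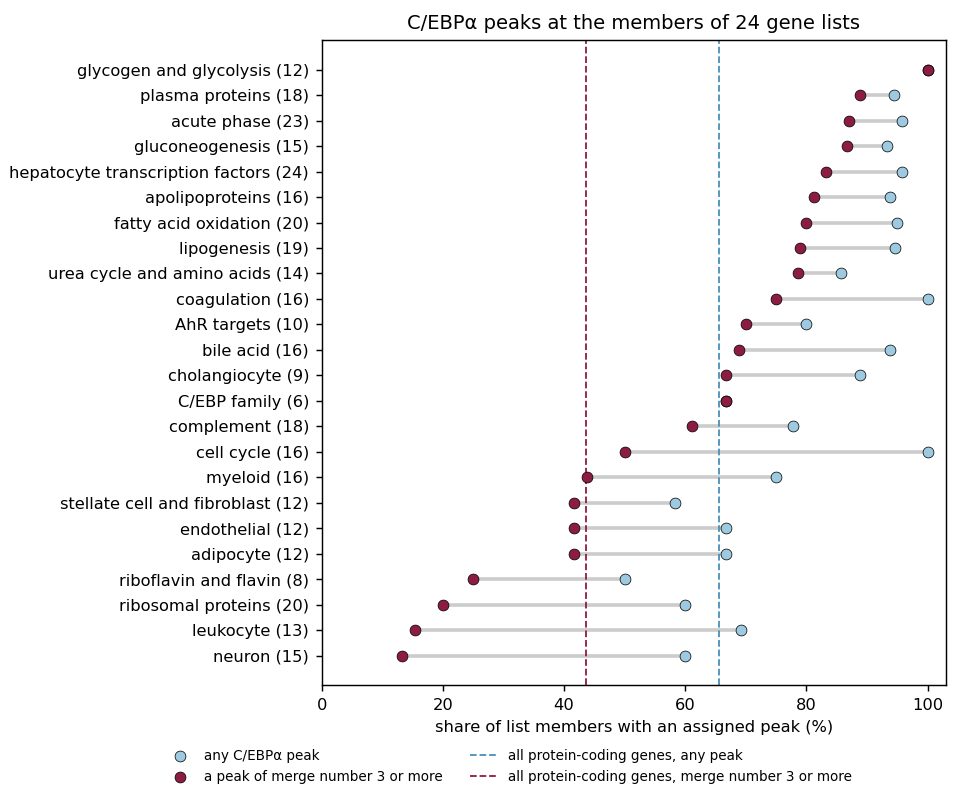
Share of the members of 24 gene lists (number of members in brackets) with any assigned C/EBPα peak (light points) and with a peak of merge number 3 or more (dark points), in percent; dashed lines are all 19970 protein-coding genes (65.5% and 43.6%). Glycogen and glycolysis stand at 100% for both, and neuron markers at 60% and 13.3%.

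The AhR list, which holds AHR and ARNT themselves beside AhR target genes, had a peak at 8 of 10 members and merge number 3 or more at 7. TIPARP, which encodes an ADP-ribosyltransferase that curbs AhR, had 8 peaks, ARNT, the gene for the dimer partner of AhR, had 7, and CYP1A1, the classical target, had 5. At CYP1A1 the peaks of merge number 3 lay at -5502 and 8710 bp from the start, both over AhR peaks and H3K27ac regions, and the peak at -958 bp had merge number 1. The neighbour CYP1A2 had none assigned and 10 within 50 kb, and AHRR had none assigned and 1 within 50 kb. Genes of riboflavin (vitamin B2) transport and flavin synthesis had a peak at 4 of 8 members and merge number 3 or more at 2. ENPP1 carried 15 of the list's 18 peaks, and ACP1 and SLC52A1, a riboflavin carrier gene, had 1 each. SLC52A2, FLAD1, SLC25A32 and RFK had none assigned. RFK, which encodes riboflavin kinase, nonetheless had a peak of merge number 3 at -672 bp from its start, over an AhR peak (chr9:76394971-76395224), that was counted for its neighbour GCNT1.

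Cell cycle genes had a peak at 16 of 16 members and merge number 3 or more at 8. CDK6 had 25 peaks in 232 kb, CDKN1A, the gene for the cell cycle inhibitor p21, had 14 around a gene of 10.9 kb, 8 of them of merge number 3, and CCND1 had 5. Ribosomal protein genes, a housekeeping list, had a peak at 12 of 20 and merge number 3 or more at 4, with RPL3 (7), RPL11 (3) and RPL5 (3) first. They are short, with a median length of 4.79 kb against 24.2 kb for all protein-coding genes. Among all genes under 10 kb, 39.4% had a peak.

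A peak of merge number 3 or more was held by 61.1% (complement) to 100% (glycogen and glycolysis) of the members of the 12 lists of liver factors and functions. In the lists for other cell types the range was 13.3% (neuron) to 66.7% (cholangiocyte), so the ranges overlap. Adipocyte genes had a peak at 8 of 12 members and merge number 3 or more at 5. PPARG, the master regulator of fat cells, had 10 peaks, LEP 6 and ADIPOQ 2, while FABP4, LIPE, LPL and RETN had none assigned. Within 50 kb, LIPE had 7 and RETN 4, and FABP4 and LPL had none. Myeloid genes had 12 of 16 and 7, led by LYZ (10), CSF3R (5) and ITGAM (4), with none assigned at CSF2RA, MPO, PRTN3 and S100A8. Within 50 kb, PRTN3 had 5 and S100A8 2, and CSF2RA and MPO had none. CSF3R, the G-CSF receptor gene and a myeloid C/EBPα target, had a peak of merge number 3 at -47 bp from an internal listed start. Leukocyte genes had 9 of 13 and 2, with CLEC4F (4), CD163 (2) and PTPRC (2) first. MS4A1, NKG7 and GZMB were among the members with none assigned (1, 4 and 3 within 50 kb). Neuron genes had 9 of 15 and 2, of which SNAP25 had 8 peaks, GRIN2A 5 and CAMK2A 3.

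Endothelial genes had a peak at 8 of 12 members and merge number 3 or more at 5, with 15 peaks at PECAM1 and 12 at VWF, then ERG (3). KDR, STAB1, LYVE1 and EMCN had none assigned. Within 50 kb, STAB1 and LYVE1 had 3 each, and KDR and EMCN had none. Stellate cell and fibroblast genes had 7 of 12 and 5, led by PDGFRB (5), COL1A1 (4) and THY1 (4). DES had none assigned and 5 within 50 kb, and LRAT, RGS5, DCN and LUM had none within 50 kb. Cholangiocyte genes had 8 of 9 and 6, with 10 peaks at SOX9, 4 at CFTR and none at KRT19. The cell line label was checked with H3K27ac regions. They were assigned to 14 of 15 hepatocyte markers with a median of 17 regions (all but APOA1), against 68.8% of all genes, and to 4 of 7 leukocyte markers with a median of 1. Endothelial markers (4 of 5, median 12) and neuron markers (5 of 5, median 7) were not free of regions, so a region near a marker does not set the cell type apart. C/EBPα peaks of merge number 3 or more were at 15 of 15 hepatocyte markers, 3 of 6 myeloid, 3 of 6 stellate cell and fibroblast, 3 of 5 cholangiocyte, 2 of 5 endothelial, 1 of 5 neuron and 0 of 7 leukocyte markers, against 43.6% of all genes.

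Across all genes the highest numbers fell on long genes, with a median length of 722 kb for the first 10. WWOX had 71 peaks, FOXP1 60, LPP 58, PLCB1 53, PARD3 48, NFIA 46, GPC6 45, SNX29 45, FNDC3B 44 and LRMDA 44. By peaks of merge number 3 or more the order was WWOX (28), LPP (28), PLCB1 (27), SNX29 (25), PRKCE (24), ATXN1 (23), FOXP1 (23), STARD13 (22), NFIA (21) and RAD51B (21). Peaks per Mb ranged from 7.67 on chromosome X to 37.6 on chromosome 20, with a median of 21.4, and merge number 3 or more made up 34.2% of peaks on X and 41.6% on 20. H3K27ac regions had the same ends, with 11.4 per Mb on X and 80.8 on 20. AhR peaks were also sparsest on X (8.01 per Mb) but densest on 17 (30.9), with 26.9 on 20. The lists do not give the copy number of the chromosomes, and its part in these densities was not tested.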

How the data were processed

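ChIP-seq of C/EBPα in HepG2 (2 control and 2 B2_minus libraries, day 12) was used as a merged list. The authors deposited positions only (peak name, chromosome, start, end and a strand sign), and no score or count. Bowtie2, HOMER and hg38 are named per the submitters' processing notes, without versions. Caller settings, filters and the role of the inputs are not given there. Depth is unknown, and Wilson intervals at 95% cover counting error over peaks or windows only.

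Peaks were compared with the deposited HepG2 AhR and H3K27ac lists (overlap of at least 1 bp). Genes were 19970 protein-coding RefSeq genes (GRCh38.p14, chromosomes 1 to 22 and X), with 22131 listed starts for 15811 of them. A peak went to the nearest gene body within 50 kb, and to the shorter gene where it lay in several. Centres were chained into clusters at HOMER's default super-enhancer stitching distance. No tests were made. Alternatives were other gene rules, overlap rules, chain distances, merge number subsets and motif settings.

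The members and gene lists were chosen with earlier results of these data known. Named genes were a fixed set of 10, the 3 members of each list with the most peaks, members without a peak where there were 5 or fewer, and the 10 genes and clusters with the most peaks. Some genes that this rule names are not reported here. Promoter distances of other list genes, the letters inside the motif, the TGNNGCAA and TGATGCAA searches, microRNAs, short and long genes, every-gene counts, peaks over 3 kb from gene ends and non-coding windows were added after the data were seen. Routines were tested on simulated data. The software was Matplotlib 3.10.9, SciPy 1.17.1, pandas 2.3.3 and NumPy 2.4.6 under Python 3.11.15.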

Additional observations from a re-analysis of the deposited data

How the results depend on the processing

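The list has no value per library, so leaving out a replicate could not be run. No paired analysis was possible because the list gives positions only. With peaks of merge number 2 or more alone, 54.4% lay inside a gene, 6.81% within 1 kb of a start, 12.7% in clusters of 5 or more, 59.6% over H3K27ac, 65.3% over AhR, and 22.6% of promoter windows under a peak held the motif. With merge number 3 or more alone, 6.86% lay within 1 kb of a start. Measured from either gene end the share was 7.91%. Clusters of 5 or more held 6.32% of peaks at 5 kb and 48.7% at 25 kb. With 50% overlap, H3K27ac stood at 46.4% and AhR at 48.9%, and with centres within 500 bp at 51.3% and 53.1%. The H3K27ac list of the AhR inhibitor experiment gave 45.7%. More than 3 kb from gene ends the shares were 54.8% and 52.4%. The palindrome alone was in 1.41% of windows under a peak, and TTNNGCAA was in 23.8% where the peak centre lay inside. For non-coding genes, TTNNGCAA was in 23.8% of windows under a peak and in 12.9% of those without a peak. Counting only peaks within 1 kb of a listed start gave 3515 genes and 116 of the 354 list genes, in place of 13082 and 296. The other 4 gene rules gave 10632 to 17684 genes, within 1.5 times of the main count. Per list, the 10 kb rule stayed within 1.5 times for 24 of 24 lists, counting every gene within 50 kb for 22 and merge number 2 or more for 21. Depth is unknown, so a gene without a peak is not shown to be unbound.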

Other observations

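Short genes with many peaks were looked at after the values were seen. Among genes of 30 kb or less, IRF2BP2 had 25 assigned peaks around a gene of 5.91 kb, of which 12 had merge number 3 or more and 17 overlapped an H3K27ac region. TECTB followed with 22, then CCNL1, ANXA2R, BHLHE40, FTH1 and SLC40A1 with 17 each. FTH1 (ferritin heavy chain) and SLC40A1 (ferroportin, the iron exporter) both belong to iron handling, and 11 of the 17 peaks at SLC40A1 had merge number 3 or more. At the other end, 13 of 314 genes of 500 kb or longer had no peak, among them NELL1, FRMPD4, GRM7, PCDH11X, MDGA2 and MYT1L. Of the genes just named, NELL1 had 1 peak within 50 kb, and the others, such as GRM7 (880 kb), had none there either. IQCJ-SCHIP1, also among the 13, is a read-through gene whose 12 peaks within 50 kb were counted for shorter genes.

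MicroRNA genes were searched within 10 kb of the hairpin, a window also chosen after the values were seen. Of 1558 hairpins in RefSeq, 633 had a C/EBPα peak (40.6%) and 315 one of merge number 3 or more (20.2%). MIR21 had 11 peaks, more than any other hairpin, of which 3 had merge number 3 and 8 overlapped an AhR peak. MIR192 and MIR194-2, a liver-expressed pair on chromosome 11, had 3 peaks each, 2 of merge number 3. The pair lies so close together that the windows are almost the same, so these are not separate counts. MIR122, the most abundant microRNA of the liver, had none within the window, the nearest being 19307 bp away. The mature forms of the first 3 from RefSeq (GRCh38.p14) are given with the seed, bases 2 to 8, in capitals, and no seed is shared.
hsa-miR-192-5p: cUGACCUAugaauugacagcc
hsa-miR-194-5p: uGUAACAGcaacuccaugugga
hsa-miR-21-5p: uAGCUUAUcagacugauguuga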
